A study of Mus musculus with 6 samples.

Results

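10 mature microRNAs known for their enrichment in neurons were followed by name in brain-derived extracellular vesicles: miR-9-5p, miR-9-3p, miR-124-3p, miR-124-5p, miR-128-3p, miR-129-5p, miR-137-3p, miR-138-5p, miR-153-3p and miR-218-5p. All 10 were found among the 1926 miRNAs listed and the 775 detected in the 6 libraries. The first group was 3 libraries of vesicles from the brains of mice that had gone through status epilepticus, a seizure that does not end by itself (SE). The other group was 3 libraries of vesicles from matched control mice (CON), and the series title names 24 hr. How seizures were induced, the strain, sex and age of the mice, the brain region and whether a library came from 1 animal or a pool are not given in the sources used here. The p-values below therefore measure the spread between libraries, which may be technical. No value in the files checks which columns are SE and which are CON.

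A miRNA is cut from a hairpin precursor, and its 5p or 3p arm is loaded into an Argonaute protein. Bases 2 to 8, the seed, pair with messenger RNAs, whose translation and stability then fall. The miRNAs described here are transcribed in neurons and neural progenitors, where they repress genes of other cell types and tune dendrites, ion channels and synapses. Extracellular vesicles are membrane particles that cells release, and they carry a sample of cellular small RNAs. In a preparation from whole tissue, a different share of vesicles from neurons and a different miRNA content per vesicle cannot be told apart.

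The mature sequences of 8 of the 10 are shown because the seed decides which messages each one pairs with. They are RefSeq sequences on build GRCm38.p6, written 5′ to 3′ with the seed in capitals. miR-124-3p and miR-124-5p are named only.
miR-9-5p: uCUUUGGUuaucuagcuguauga
miR-9-3p: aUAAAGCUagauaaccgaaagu
miR-128-3p: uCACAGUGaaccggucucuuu
miR-129-5p: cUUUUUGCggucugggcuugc
miR-137-3p: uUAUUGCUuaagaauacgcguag
miR-138-5p: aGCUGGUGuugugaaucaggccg
miR-153-3p: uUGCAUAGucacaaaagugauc
miR-218-5p: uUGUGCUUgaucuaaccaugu

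The 8 sequences carry 8 different seeds. RefSeq held a sequence for 664 of the 775 detected miRNAs, and none of those others shared a seed with any of the 8. miR-9-5p and miR-9-3p are produced identically from 3 hairpins, Mir9-1 (chr3:88215598-88215686, plus strand, in an intron of the long noncoding RNA gene Gm3764), Mir9-2 (chr13:83738814-83738885, plus strand, exonic in at least 1 transcript of C130071C03Rik) and Mir9-3 (chr7:79505264-79505353, plus strand, in an intron of Mir9-3hg). miR-128-3p comes from introns of R3hdm1 (Mir128-1, chr1:128202361-128202430, plus strand) and Arpp21 (Mir128-2, chr9:112118636-112118711, minus strand). miR-218-5p comes from introns of the axon guidance genes Slit2 (Mir218-1, chr5:48223942-48224051, plus strand) and Slit3 (Mir218-2, chr11:35616816-35616925, plus strand). miR-153-3p comes from an intron of Ptprn2 (chr12:117250817-117250885, plus strand), a gene for a protein of secretory vesicles. Gene positions are from GENCODE M21. Reads of miR-9, miR-128-3p, miR-129-5p, miR-138-5p and miR-218-5p cannot be assigned to 1 of their hairpins.

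The libraries held 6016533 to 10845434 miRNA reads in SE and 5482407 to 6504884 in CON, as recovered from the steps of the values, and levels are given in RPM, reads scaled to the same total of miRNA reads in every library. The deepest was SE replicate 1. In the deposited table the miRNA names fit the SE columns only. CON rows were put back under names through the base means that the authors' deposited table of fold changes lists. This worked for 687 of 687 names, each of which met 1 set of CON reads, and 31 CON rows were used more than once. CON values are given under these names throughout. Size factors computed from the put-back reads differed from those in the base means by at most 4.79e-08%. For the 10 miRNAs, log2 ratios recomputed from these reads lay within 0.00962 of the ratios in the authors' deposited table. The CON totals came from the base means, so this closeness cannot check which CON row belongs to a name.

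The 10 miRNAs together made up 2.99%, 2.48% and 2.71% of the reads in the SE libraries (replicates 1 to 3), against 3.23%, 2.75% and 3.12% in the CON libraries. The means were 2.73% ± 0.258 in SE and 3.03% ± 0.248 in CON (SD, n = 3 each), and the SE and CON values overlapped. let-7 and miR-98, members of the let-7 family, took 80.1% ± 1.35 of the reads in SE and 78.3% ± 0.943 in CON (SD, n = 3 each). Of the reads outside that family, the 10 miRNAs held 13.7% ± 1.09 in SE and 13.9% ± 0.549 in CON (SD, n = 3 each). miR-9-5p, miR-128-3p and miR-138-5p supplied 68.4% ± 1.38 of the 10 miRNAs' sum in SE and 69.5% ± 2.74 in CON (SD, n = 3 each).

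**Figure D1:**
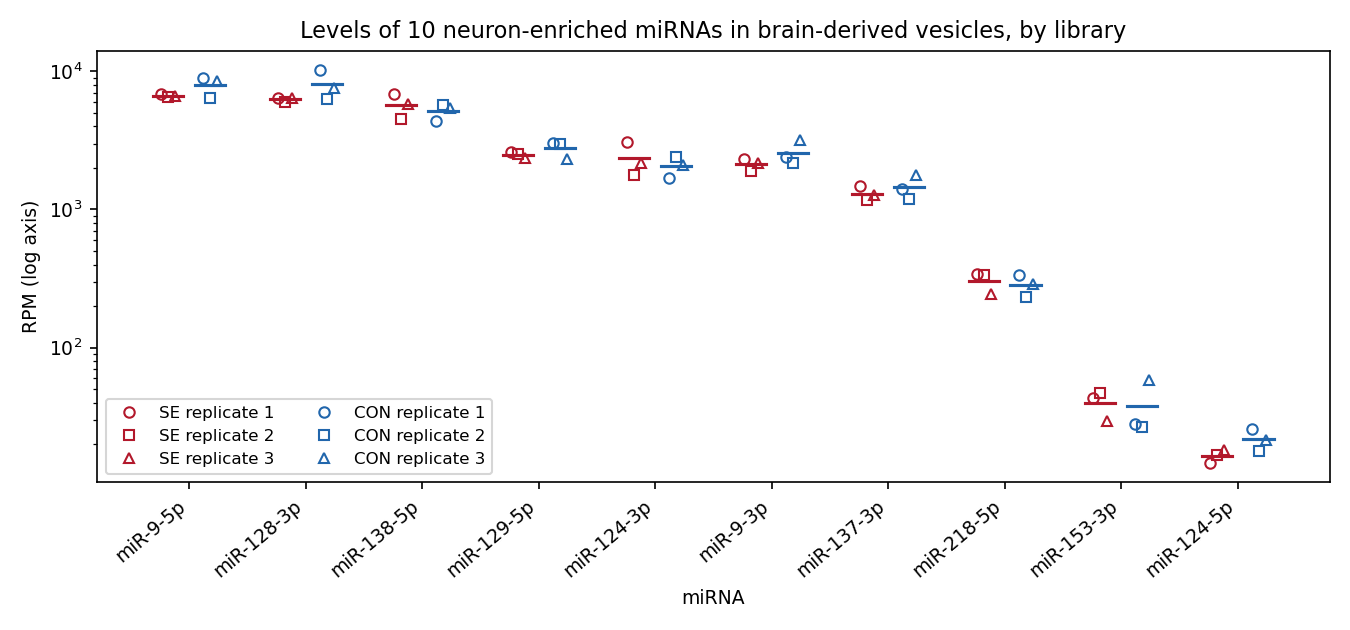
Level of each of the 10 neuron-enriched miRNAs in RPM on a log axis, with SE libraries in red left of CON libraries in blue; symbols stand for replicate numbers and bars for group means. Mean levels in SE run from miR-9-5p, at 6649 RPM, to miR-124-5p, at 16.5 RPM. In CON they run from miR-128-3p, at 8020 RPM, with miR-9-5p at 7927 RPM, to miR-124-5p, at 21.8 RPM. The SE and CON points of each miRNA overlap.

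No difference between SE and CON vesicles was detected for any of the 10 miRNAs. All 10 averaged 10 RPM or more across libraries and so entered the test, limma-trend on log2(RPM + 1) over 290 miRNAs, with two-sided p-values adjusted by Benjamini-Hochberg. 0 of the 10 passed an adjusted p of 0.05, where 1.03% of all tested miRNAs did (0.345% higher in SE and 0.690% lower in SE), and their limma adjusted p ran from 0.570 to 0.910. At an unadjusted p under 0.05 there were 0 of the 10 and 9.31% of all tested miRNAs. The SE and CON values overlapped for each of the 10, while they did not for 14.8% of all tested miRNAs (1.38% with SE higher and 13.4% with SE lower). The log2 fold change, SE over CON, was above 0 for 4 and below 0 for 6, with a median of -0.15, against -0.07 over all 290; with quantile normalization 6 were above 0 and 4 below, with a median of 0.0983. Fold changes on this scale understate differences of the lowest miRNAs.

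miR-9 and miR-124 are the classic pair of neuronal identity, which together drive human fibroblasts towards a neuronal fate when expressed in them. miR-9-5p, which acts in neural progenitors and in axon growth, stood at 6814, 6516 and 6618 RPM in SE replicates 1 to 3, and at 8906, 6443 and 8432 RPM in CON replicates 1 to 3. The SE libraries were close together, and CON replicate 2 lay below all of them while the other CON libraries lay above. The log2 fold change was -0.24 (s.e. 0.14) with a 95% interval from -0.54 to 0.06 and a limma adjusted p of 0.641. miR-9-3p, the opposite arm, which in human cells represses CoREST, a partner of the neuronal repressor REST, stood at 2325, 1887 and 2161 RPM in SE and at 2379, 2177 and 3173 RPM in CON. It was highest in CON replicate 3, and SE replicate 1 lay within the CON range. Its log2 fold change was -0.26 (s.e. 0.17), with an interval from -0.63 to 0.10.

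miR-124-3p, which in neurons lowers the splicing repressor Ptbp1 and non-neuronal messages, stood at 3082, 1788 and 2163 RPM in SE and at 1689, 2410 and 2115 RPM in CON. SE replicate 1 was the highest of the 6 libraries, and the other SE libraries lay inside the CON range. Its log2 fold change was 0.16 (s.e. 0.20), with an interval from -0.26 to 0.58, and it was -0.06 without SE replicate 1. Its opposite arm miR-124-5p was at 14.8, 16.6 and 18.2 RPM in SE and at 25.9, 17.9 and 21.7 RPM in CON, from 98 to 160 reads in each library. 2 of the 3 SE values lay below all CON values. With a log2 fold change of -0.37 (s.e. 0.25), the interval from -0.89 to 0.15 held 0.

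miR-128-3p and miR-129-5p act on neuronal excitability. Mice that lack miR-128 in neurons become hyperactive and develop fatal seizures, and miR-129-5p was shown in rat neurons to repress the potassium channel Kv1.1. miR-128-3p stood at 6407, 6022 and 6414 RPM in SE and at 10149, 6334 and 7578 RPM in CON. CON replicate 1 was far above the other libraries, and CON replicate 2 fell between the SE values. miR-128-3p had the smallest unadjusted p of the 10, 0.0550 in limma, with an adjusted p of 0.570, a log2 fold change of -0.33 (s.e. 0.16) and an interval from -0.66 to 0.01. miR-129-5p was at 2620, 2521 and 2348 RPM in SE and at 3013, 2991 and 2321 RPM in CON. Its lowest value was that of CON replicate 3, and the other CON libraries were above all SE libraries. The log2 fold change was -0.14 (s.e. 0.16), and it was 0.11 after quantile normalization.

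miR-137-3p, miR-138-5p, miR-153-3p and miR-218-5p act on neuronal maturation and the synapse. miR-137-3p, a regulator of neurogenesis and synaptic vesicle genes whose locus is linked to schizophrenia in humans, was at 1481, 1162 and 1268 RPM in SE and at 1415, 1186 and 1768 RPM in CON. SE replicate 2 was lowest and CON replicate 3 highest, and the log2 fold change of -0.15 (s.e. 0.19) was 0.09 after quantile normalization and near 0 (0.0017) without CON replicate 3. miR-138-5p, which limits dendritic spine size in rat hippocampal neurons, was at 6797, 4479 and 5832 RPM in SE and at 4346, 5710 and 5395 RPM in CON. 2 SE libraries lay above all CON libraries and the other lay near the lowest CON value. The log2 fold change was 0.14 (s.e. 0.17), with an interval from -0.21 to 0.49, and it was -0.0013 without SE replicate 1.

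miR-153-3p, which represses alpha-synuclein in cultured cells, was at 43.3, 46.7 and 29.3 RPM in SE and at 27.9, 26.6 and 58.3 RPM in CON. Its CON values varied the most of the 10, with a coefficient of variation of 47.6%, and CON replicate 3 stood apart from the other CON libraries. Its log2 fold change of 0.15 (s.e. 0.29) was -0.02 without CON replicate 1 and -0.05 without CON replicate 2. miR-218-5p, which in mice is needed by motor neurons, was at 339, 334 and 245 RPM in SE and at 334, 233 and 289 RPM in CON. The values of the SE and CON libraries were interleaved. Its log2 fold change of 0.10 (s.e. 0.21) was -0.04 without CON replicate 2.

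**Figure D2:**
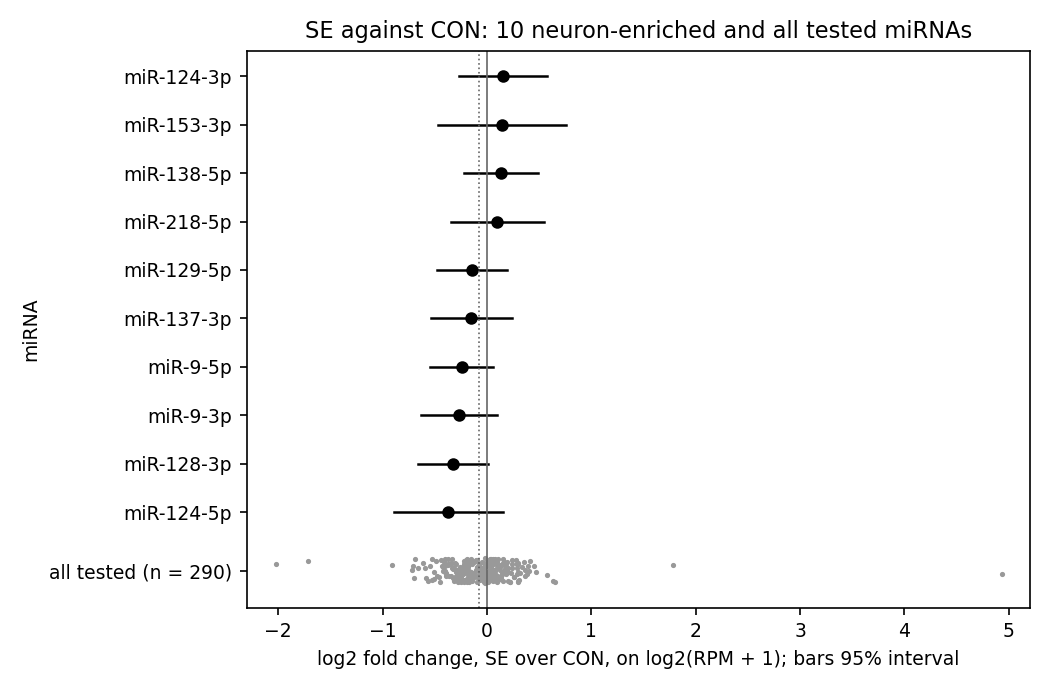
Log2 fold change of SE over CON on log2(RPM + 1) for each of the 10 neuron-enriched miRNAs (points, with bars for the 95% interval) above all 290 tested miRNAs (grey). The points run from -0.37 for miR-124-5p to 0.16 for miR-124-3p, every interval holds 0, and the dotted line marks the median of all tested miRNAs, -0.07.

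The intervals bound what these libraries can show. Expressed as folds, the interval of miR-9-5p ran from 0.687 to 1.04 times the CON level, that of miR-128-3p from 0.633 to 1.01, that of miR-138-5p from 0.862 to 1.40 and that of miR-124-3p from 0.832 to 1.49. The widest was that of miR-153-3p, from 0.725 to 1.69. No interval held a doubling, or a fall to 0.5 of the CON level, for any of the 10. Differences inside an interval were not resolved with 3 libraries a group. In the authors' deposited table the adjusted p was 0.975 for all 10, and the smallest unadjusted p was 0.181, for miR-128-3p. That table called 1.04% of its miRNAs. Its fold changes run as CON over SE, and for the 10 miRNAs they lay between -0.26 for miR-124-3p and 0.28 for miR-124-5p in the authors' deposited table.

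The order of the levels was nearly the same in both groups. The 8 sequences above are 21 to 23 bases long, so RPM was compared between miRNAs without a length correction, and how efficiently each sequence enters a library is not known. In SE libraries miR-9-5p (6649 RPM) and miR-128-3p (6281 RPM) led, with miR-9-5p higher in 3 of 3 libraries, and in CON libraries miR-128-3p (8020 RPM) and miR-9-5p (7927 RPM) led with overlapping ranges. miR-138-5p came next in both groups, at 5703 RPM in SE, where its range overlapped that of miR-128-3p, and at 5150 RPM in CON, where it lay below miR-9-5p in 3 of 3 libraries. miR-129-5p, miR-124-3p and miR-9-3p followed between 2071 and 2775 RPM, with ranges that overlapped from each to the next in both groups. miR-137-3p, at 1304 RPM in SE, against 1456 RPM in CON, lay below miR-9-3p in SE with no overlap and overlapped miR-124-3p in CON. miR-218-5p, miR-153-3p and miR-124-5p took the last places in both groups, each apart from its neighbours. Among all listed miRNAs, miR-9-5p had rank 18 in both groups, miR-124-3p rank 30 in SE and 32 in CON, and miR-124-5p rank 249 in SE and 219 in CON.

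The 10 miRNAs did not move as a block across the libraries. miR-124-3p, miR-138-5p and miR-218-5p were highest in SE replicate 1, as were 31.0% of all tested miRNAs. miR-9-5p, miR-124-5p, miR-128-3p and miR-129-5p were highest in CON replicate 1, and miR-9-3p, miR-137-3p and miR-153-3p in CON replicate 3. Of all tested miRNAs, 28.3% were highest in CON replicate 1 and 24.5% in CON replicate 3, so these shares were near the background. None of the 10 was highest in SE replicate 2, SE replicate 3 or CON replicate 2, where 7.59%, 2.41% and 6.21% of all tested miRNAs had their highest value. In CON replicate 1, miR-128-3p stood 0.53 above its own mean on the log2 scale and miR-124-5p 0.44 above, while miR-124-3p stood at -0.36 and miR-138-5p at -0.30. In SE replicate 1 the signs were the other way, at 0.51 for miR-124-3p and 0.34 for miR-138-5p, against -0.13 for miR-128-3p and -0.33 for miR-124-5p. The median deviation of the 10 was lowest in SE replicate 2 (-0.20) and highest in CON replicate 3 (0.15), where all tested miRNAs had medians of -0.07 and 0.07.

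**Figure D3:**
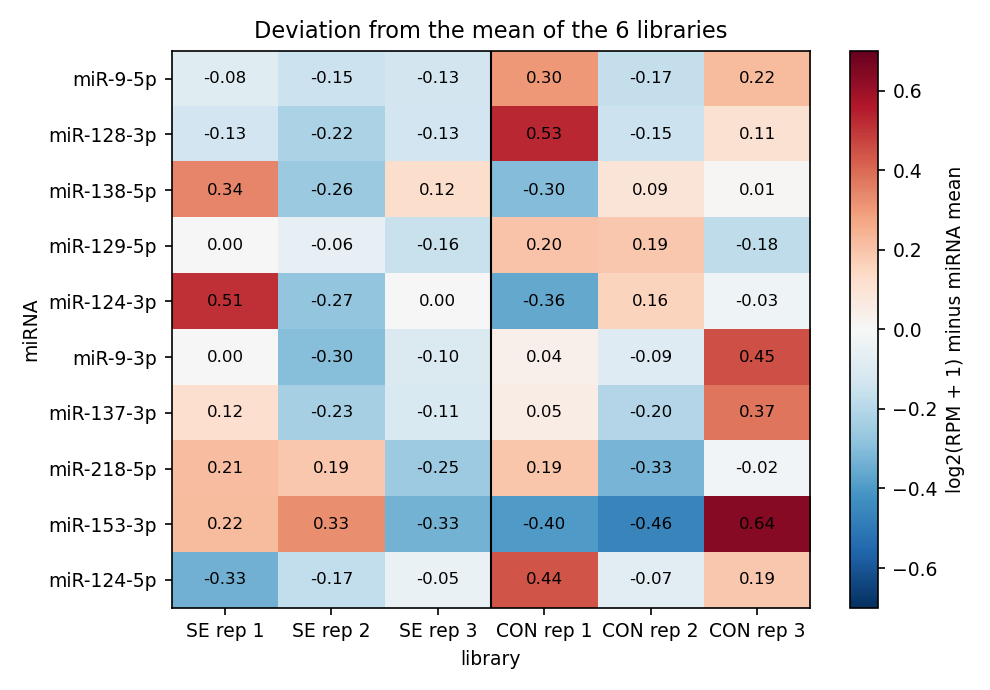
Deviation of log2(RPM + 1) from each miRNA's mean over the 6 libraries, with SE replicates left of the line and CON replicates right of it; red is above and blue below the mean. miR-124-3p (0.51) and miR-138-5p (0.34) are high in SE replicate 1 and low in CON replicate 1, where miR-128-3p (0.53) and miR-124-5p (0.44) are high.

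Likeness of profiles was measured as the root mean square difference of log2(RPM + 1) over the 6 libraries, after each miRNA was centred on its own mean. Outside the 10, the nearest of 280 tested miRNAs to miR-9-5p were miR-300-5p (0.066), miR-30e-3p (0.074) and miR-16-5p (0.076), where the median of the 280 was 0.26. The nearest to miR-124-3p were miR-708-5p (0.091), miR-185-5p (0.098) and miR-181d-5p (0.099), where the median was 0.35. Among the 10, the nearest to miR-9-5p was miR-128-3p (0.111) and the nearest to miR-124-3p was miR-138-5p (0.093). These values describe 6 libraries, and all miRNAs of a library share its depth and scaling.

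The arms of a hairpin are cut from the same precursor and differ in how much is retained. Their ratio was taken within each library, as a plain ratio of RPM for single libraries and as (RPM + 1) over (RPM + 1) for the log2 values and tests, which lowers the ratio where an arm is scarce. miR-9 kept much of both arms: miR-9-5p was 2.93, 3.45 and 3.06 times miR-9-3p in SE, and 3.74, 2.96 and 2.66 times in CON. The log2 ratio averaged 1.65 ± 0.12 in SE and 1.63 ± 0.25 in CON (SD, n = 3 each; exact two-sided permutation test, p = 0.9). miR-124 kept almost only 1 arm: miR-124-3p was 209, 108 and 119 times miR-124-5p in SE, and 65.1, 135 and 97.6 times in CON. The log2 ratio averaged 7.03 ± 0.51 in SE and 6.50 ± 0.51 in CON (SD, n = 3 each; exact two-sided permutation test, p = 0.4), and adjusted over both pairs the p-values were 0.9 for miR-9 and 0.8 for miR-124. A test of 3 libraries against 3 cannot give a p below 0.1.

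The other hairpins were compared with the opposite arms that the table lists. miR-128-3p was 541 to 795 times its 5p arms in SE and 551 to 1208 times in CON, and miR-137-3p was 194 to 255 times miR-137-5p in SE and 197 to 261 times in CON. For miR-129, the 5p arm was 54.5, 75.5 and 75.9 times the 3p arms in SE and 79.1, 98.2 and 88.3 times in CON. All 3 SE ratios lay below all 3 CON ratios, which no other of the 8 did. Of 49 hairpins with both arms tested under matching 5p and 3p names, 8.16% had ratios that did not overlap. miR-129, whose 3p arms form a merged entry, was not among the 49. Its difference of -0.37 on the log2 scale was not tested.

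miR-153 was the exception in its arms. The hairpin is shown because both arms were kept at like levels, with miR-153-5p first and miR-153-3p after it in capitals.
Mir153: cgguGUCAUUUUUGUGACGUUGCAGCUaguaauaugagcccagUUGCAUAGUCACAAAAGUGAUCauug
miR-153-3p was 0.913, 1.01 and 0.841 times miR-153-5p in SE, and 0.531, 0.695 and 0.995 times in CON. In 5 of 6 libraries the 5p arm, at 34.8 to 47.5 RPM in SE and 38.3 to 58.6 RPM in CON, was the higher of the pair. Of the 8 miRNAs it was the only one whose listed arm was not the higher arm in 6 of 6 libraries.

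**Figure D4:**
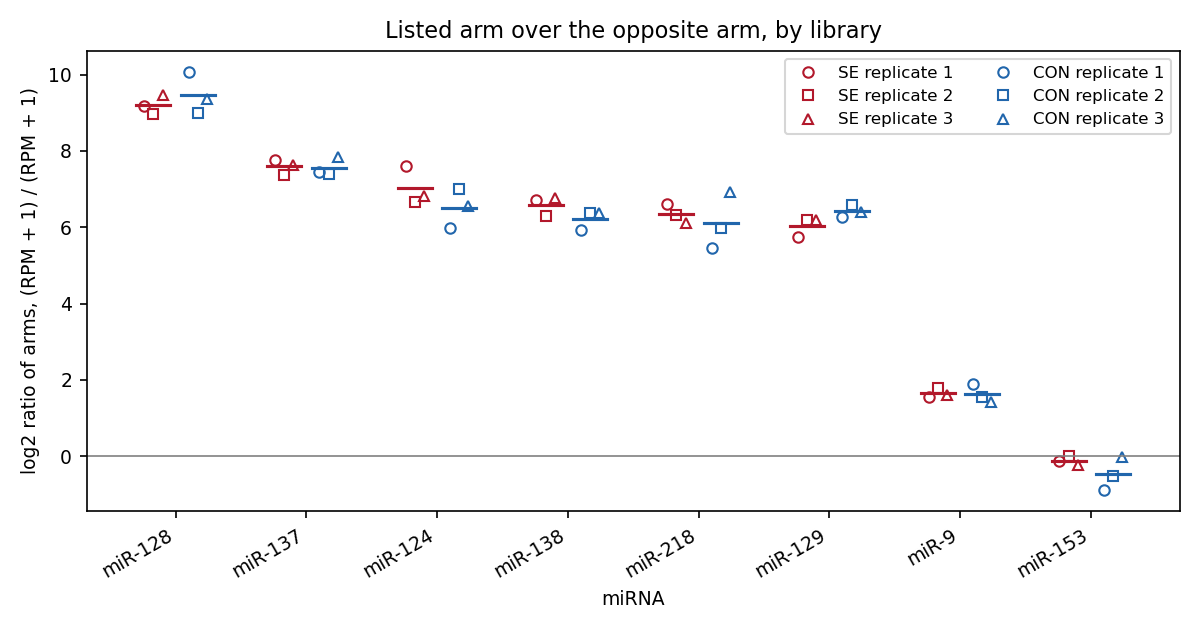
Log2 ratio of the listed arm over the opposite arm, (RPM + 1) over (RPM + 1), for the 8 miRNAs, with SE libraries in red left of CON libraries in blue; symbols stand for replicate numbers and bars for group means. miR-128 has the highest ratio, miR-9 averages 1.65 in SE and 1.63 in CON, and miR-153 lies near 0, at -0.12 in SE and -0.47 in CON.

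For miR-128, miR-138 and miR-218, the opposite arms of the 2 hairpins differ in sequence. They are listed apart and show which hairpin they came from. The merged entry of the miR-129 3p arms cannot show this. The 3p arms of the miR-138 hairpins had 336 to 689 reads in a library, the most of such pairs here, and are given with bases 2 to 8 in capitals.
miR-138-1-3p: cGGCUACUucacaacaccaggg
miR-138-2-3p: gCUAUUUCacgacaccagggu
miR-138-2-3p, from Mir138-2 (chr8:94324311-94324381, plus strand, exonic in at least 1 transcript of C78859), made up 75.6% ± 1.54 of these reads in SE and 77.5% ± 3.55 in CON (SD, n = 3 each). The remainder was miR-138-1-3p, from Mir138-1 (chr9:122682876-122682974, plus strand). For miR-128 the arm of Mir128-2 made up 24.1% ± 3.30 in SE and 25.5% ± 1.97 in CON (SD, n = 3 each), from 47 to 109 reads of both arms in a library. For miR-218 the arm of Mir218-2 made up 91.2% ± 15.2 in SE and 77.8% ± 38.5 in CON (SD, n = 3 each). These rest on only 9 to 37 reads of both arms in a library. These shares are of retained opposite arms and need not equal the shares of the guide arms.

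Of the opposite arms and paralogs, 4 entries were tested: miR-153-5p, miR-138-1-3p, miR-138-2-3p and the merged entry of miR-129-1-3p and miR-129-2-3p. Of these 4, 0 passed, where 1.03% of all tested miRNAs did. miR-129b-5p, annotated on the strand opposite Mir129-2, was at 3.65 RPM in CON replicate 2 and at 0 in the other 5 libraries. miR-9b-5p, miR-9b-3p, miR-124b-3p and miR-129b-3p were at 0 in all 6 libraries.

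A further list held 18 miRNAs enriched in neurons. 15 were tested, of which 0 passed in either direction by limma and 3 had an unadjusted p under 0.05, where 9.31% of all tested miRNAs did, and their log2 fold changes had a median of -0.08 against -0.07 over all 290. The most abundant were miR-7a-5p (21118 RPM ± 3226 in SE and 18637 RPM ± 1259 in CON), miR-382-5p, miR-7b-5p and miR-127-3p (7612 RPM ± 293 in SE and 8042 RPM ± 752 in CON; SD, n = 3 each). 3 of the 15 had SE values below all CON values, where 13.4% of all tested miRNAs did, and 0 had them above. These were miR-212-3p (log2 fold change -0.72, s.e. 0.23), miR-344d-3p (-0.66, s.e. 0.28) and miR-132-3p (-0.51, s.e. 0.20), named here after their values were seen, and their limma adjusted p ran from 0.231 to 0.437.

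Markers of other cells were present beside the neuronal miRNAs. The sum of 5 astrocyte-enriched miRNAs was 11919 to 12689 RPM in SE and 13495 to 17908 RPM in CON. The highest of these 5 was miR-29a-3p, at 6849 RPM in SE, against 9877 RPM in CON (limma adjusted p = 0.191). SE values lay below all CON values for miR-29a-3p and miR-29c-3p, as for 13.4% of all tested miRNAs. For miR-29b-3p, miR-143-3p and miR-24-3p they overlapped. All 5 log2 fold changes were below 0, as were those of 173 of all 290 tested miRNAs. The sum of the endothelial miR-126a arms was 4355 to 5240 RPM in SE and 4817 to 6715 RPM in CON. The sum of 4 oligodendrocyte miRNAs was 262 to 344 RPM in SE and 319 to 463 RPM in CON, that of 6 microglial and leukocyte miRNAs 127 to 156 RPM in SE and 200 to 235 RPM in CON, and that of 3 choroid plexus and ependymal miRNAs 265 to 572 RPM in SE and 302 to 468 RPM in CON. Most of the oligodendrocyte sum was miR-338-3p, at 256 RPM in SE, against 363 RPM in CON (limma adjusted p = 0.498), with overlapping values. miR-219a-2-3p was at 41.5 RPM in SE, against 41.1 RPM in CON, and miR-338-5p at 9.25 RPM in SE, against 9.77 RPM in CON. The oligodendrocyte marker miR-219a-5p was at 0 in 4 libraries and at most 0.598 RPM in the others. The red cell miRNA miR-144-3p was at 0 in all 6 libraries, and miR-451a was at 0 in 5 libraries and had 6 reads in CON replicate 3. The other red cell entry, merging miR-486a-5p and miR-486b-5p, was present in all 6 libraries, at 24.8 RPM in SE, against 25.4 RPM in CON. The liver miRNA miR-122-5p was at 89.4 to 114 RPM in SE and 150 to 233 RPM in CON (limma adjusted p = 0.0504). Of these lists, the 1 member that passed was miR-155-5p, of activated myeloid cells, at 25.3 RPM in SE, against 105 RPM in CON. Of all tested miRNAs, 1.03% passed, 0.690% with SE lower. Without miR-155-5p the other 5 microglial and leukocyte miRNAs summed to 105 to 128 RPM in SE and 89.2 to 136 RPM in CON, which overlapped. miR-146a-5p was at 33.5 RPM in SE, against 21.6 RPM in CON (limma adjusted p = 0.385). The part of such cells in the values of the 10 miRNAs was not tested.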

How the data were processed

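miRNA libraries from brain vesicles, 3 SE and 3 CON, were grouped by title. Per the labels' protocols, RNA was extracted on columns with DNase treatment, and the QIAseq miRNA kit served for library preparation. Per the submitters' processing notes, the build was mm9 and DESeq2 was used. The aligner, the counter and any use of molecular identifiers are not given in the sources used here. The authors' deposited table holds RPM, reads scaled to the total assigned to listed miRNAs. All values above 0 were whole multiples, within 0.01 reads, of 1 read when each column's lowest value was read as 2 reads, and depth came from these steps. Whether the authors dropped single reads is not stated. The authors' deposited table of fold changes gives a base mean and a Wald statistic (both treated as a score), log2 fold changes, raw p-values and their adjusted form, all taken over without refitting.

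Size factors for SE came from the 88 miRNAs seen in SE alone. Each miRNA's CON total was what remained of 6 base means after its normalized SE reads were taken off, and 687 of 687 totals met a CON row to within 1e-05 of their size. Over 316 miRNAs with a base mean of at least 50, recomputed log2 ratios differed from the authors' deposited table by a median of 0.00163, against 0.155 with the names as deposited. These ratios also gave the direction of that table. The base means set the CON totals, so the recomputed ratios cannot check which CON row was put under a name.

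limma 3.58.1 (R 4.3.3) was fitted to log2(RPM + 1) with trend, over the 290 miRNAs averaging 10 RPM or more, and tested on simulated data. Calls are two-sided at a Benjamini-Hochberg adjusted p under 0.05. Arm ratios used exact permutation tests over 10 splits. Sequences were matched by name to RefSeq (GRCm38.p6) and hairpins to GENCODE M21 on the same build. Other steps used scipy 1.17.1, pandas 2.3.3, numpy 2.4.6 and, for figures, matplotlib 3.10.9 under Python 3.11.15. All 10 miRNAs were named, with listed opposite arms, the 4 most abundant of the second neuronal list and the 3 nearest profiles. The members and lists were chosen with earlier results of these data known. Alternative settings were a pseudocount of 0.5 or 5 RPM, a filter of 50 RPM or none, 3 other scalings, a replicate block, each library left out, and the CON names as deposited; limma-voom on the recovered reads was added after seeing the data.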

Additional observations from a re-analysis of the deposited data

How the results depend on the processing

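None of the 10 miRNAs passed under any alternative run. The count of miRNAs called among all tested was 3, and it was 0 when CON kept its deposited row names, where 2 had an unadjusted p under 0.05; with each library left out in turn it ran from 3 to 6, with 6 without CON replicate 2 and 5 without CON replicate 3. Without CON replicate 2, miR-9-5p and miR-128-3p had an unadjusted p under 0.05, as did 45 of the 294 miRNAs tested in that run. The smallest limma adjusted p of the 10 was then 0.151. Scaling to the reads outside the let-7 family moved the median log2 fold change of all tested miRNAs by 0.12, and turned none of the 10. Of 158 values of single miRNAs under the alternatives, 13 changed sign and 145 did not. With the names as deposited, miR-124-3p was at -0.27, miR-124-5p at 0.0065, miR-138-5p at -0.0492, miR-153-3p at -0.15 and miR-218-5p at -0.0448. With quantile normalization, miR-129-5p was at 0.11 and miR-137-3p at 0.0863. Leaving out 1 library at a time gave -0.0594 to 0.33 for miR-124-3p, -0.0013 to 0.30 for miR-138-5p, -0.0482 to 0.50 for miR-153-3p, -0.0366 to 0.25 for miR-218-5p and -0.29 to 0.0017 for miR-137-3p. Those that kept their sign ran from -0.38 to -0.15 for miR-9-5p, -0.38 to -0.10 for miR-9-3p (-0.10 without CON replicate 3), -0.50 to -0.24 for miR-124-5p, -0.48 to -0.14 for miR-128-3p (-0.14 without CON replicate 1) and -0.27 to -0.0793 for miR-129-5p (-0.27 without CON replicate 3). At 50 RPM, miR-153-3p and miR-124-5p were not tested. The log2 difference of the miR-9 arm ratio ran from -0.0836 to 0.16, with -0.0436 without SE replicate 2, -0.0059 without CON replicate 2 and -0.0836 without CON replicate 3, and that of miR-124 from 0.24 to 0.77, with -0.28 under the names as deposited. The cause was not tested. The share of reads ran from 2.59% to 2.85% in SE and from 2.93% to 3.17% in CON; counted outside the let-7 family it was 13.7% in SE and 13.9% in CON, by construction larger. Same-numbered SE and CON libraries had correlations of deviations of -0.415, -0.249 and 0.0447. The deviations were centred within each group of 3 libraries, so these values cannot show whether the replicate numbers pair the samples. With the replicate block the count of calls was 3, the smallest adjusted p of the 10 was 0.655, and no SE library correlated best with its own number. edgeR and DESeq2 on recovered reads were not run; limma-voom took their place, also with 3 calls. The fewest reads among the 10 were those of miR-124-5p, and the widest interval was that of miR-153-3p.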
